A study of Mus musculus with 6 samples.

Results

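Lung cells of mice given lipopolysaccharide (LPS) together with activation of the subcoeruleus nucleus (SLC) were compared with lung cells of mice given LPS alone. The comparison takes in 4 of the 6 libraries of the study, 2 in each group, chosen by their labels, and 51683 of the 76800 cells kept over all 6. All mice were male C57BL/6J, 12 weeks old, with lungs taken 3 days after treatment. The LPS libraries, called LPS_1 and LPS_2 here, come from mice treated with 1 mg/kg LPS. The libraries SLC_LPS_1 and SLC_LPS_2 come from mice given the same LPS dose and 7 activations of the SLC, which the labels name SLC-Gq activation. The remaining PBS_1 and PBS_2 are controls given PBS, and enter as the third group of the statistical fit and as background values. Every group therefore shares strain, sex, age and time, and both groups of the comparison carry LPS. The labels leave out the means of activation, its agent, its timing relative to LPS, the route of LPS and whether a library pools animals. A group with SLC activation alone is not analysed here. The labels call the 2 libraries of a group biological replicates, so the p-values speak for the spread between these libraries.

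LPS is a cell wall component of Gram-negative bacteria that is sensed by Toll-like receptor 4. In the lung it brings neutrophils and monocytes out of the blood and starts an interferon response, in which type I interferon and interferon gamma switch on antiviral genes, guanylate-binding GTPases and the machinery that presents peptides on MHC class I. Noradrenergic neurons of the brainstem, among them those of the locus coeruleus and the subcoeruleus region beside it, feed into autonomic control. Sympathetic nerve endings in the lung release noradrenaline, which acts on adrenergic receptors of vessels, airways and leukocytes and is taken up again by the transporter Slc6a2. The series title names the sympathetic nerve as the route from the SLC to the lung's immune response, which is the question the comparison addresses.

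Between 11608 and 13710 cells per library were kept in the 4 libraries, with a median of 1134 to 2606 UMIs per cell and 26900471 to 43282030 UMIs per library. A UMI (unique molecular identifier) stands for 1 captured RNA molecule, and levels are in CPM, which scales a gene's UMIs to a common total over the library or class. In sums over a library, fewer cells of a type and less RNA per cell cannot be told apart. Pairs of libraries shared at most 6 cell barcodes. Summed markers of alveolar type 2 cells lay between 367.8 and 791.9 CPM and those of club cells, the secretory cells of the airway, between 388.6 and 1592 CPM in the 4 libraries, so lung epithelium was present in each. Differences are reported where both libraries of one group lay beyond both of the other, and "higher" and "lower" are used in that sense. "Rose" and "fell" are kept for genes with an adjusted p under 0.05 in edgeR's quasi-likelihood test.

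LPS_2 stood apart from the other 3 treated libraries. Over 3421 well expressed genes the median absolute log2 difference in level was 0.383 between LPS_1 and LPS_2. It was only 0.185 between LPS_1 and SLC_LPS_1 and 0.173 between LPS_1 and SLC_LPS_2. The SLC pair differed from each other by 0.257 and the PBS pair by 0.118. LPS_1 was thus closer to either SLC library than to its own replicate. The neutrophils showed the same split. Of LPS_2 neutrophils 67.5% fell in cluster 10, which held at most 0.297% of the neutrophils of the other treated libraries. Of SLC_LPS_1 neutrophils 59.7% fell in cluster 1, against 1.76% to 6.10% elsewhere. Cluster 0, led by interferon-induced Ifit genes, held 36.7% and 14.9% of neutrophils after LPS and 6.54% and 41.3% after SLC activation plus LPS, so its share followed no group.

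**Figure D1:**
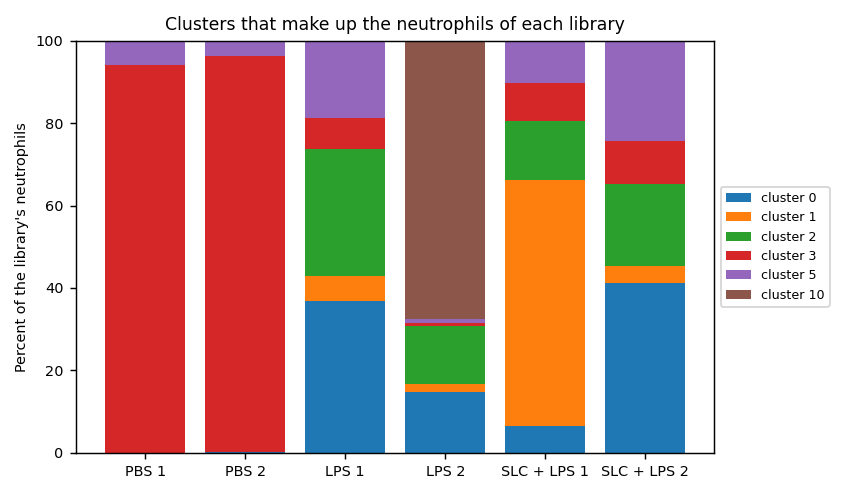
Stacked bars of each library's neutrophils (y axis, percent of the library's neutrophils), with 1 bar per library and 1 colour per cluster. Cluster 10 holds 67.5% of LPS_2 and cluster 1 holds 59.7% of SLC_LPS_1, while clusters 0 and 2 hold cells of all 4 treated libraries.

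In the libraries as a whole, 2374 of 17900 tested genes were higher (13.3%) and 1963 lower (11%) after SLC activation plus LPS than after LPS. With 2 libraries a group, random labels would make a gene without ties higher or lower with a probability of 0.333. The shares higher and lower add up to less than that, so they do not by themselves show a difference between the groups. None of the tested genes passed the edgeR test (0 of 17900, 0.0%), and 488 had an unadjusted p under 0.05. DESeq2 on the same counts called 17 genes, 5 higher and 12 lower. Among genes with a symbol and a mean of 50 CPM or more in one group, predicted genes and antibody segments left out, those with a wide gap between the groups were, on the high side, the microtubule-bound ubiquitin ligase Mid1, the granulocyte GTPase Rab44, the linker histone H1f2, Klhl6 and the lysozyme Lyz2, and on the low side the neutrophil granule gene Ngp, the non-classical MHC class I gene H2-T23, the inducible nitric oxide synthase Nos2 and the costimulatory ligand Tnfsf9. The predicted gene Gm47015, left out by that rule, was at 13.9 and 101 CPM after LPS and at 1.72 and 4.05 CPM after SLC activation plus LPS, a wider gap than that of Nos2. Gm47015 leads the genes of cluster 21, which also include Vmn2r96. That cluster held 5.43% of the cells of LPS_2 and at most 0.134% of those of any other treated library. Each of the 24 genes named by the gap had an adjusted p of 0.922 in edgeR, so the values below describe these libraries.

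Mid1 was at 8.35 and 4.85 CPM in LPS_1 and LPS_2 and at 43.1 and 67.9 CPM in SLC_LPS_1 and SLC_LPS_2, where every following list of 4 values keeps this order of libraries. Its fitted log2 fold change was 3.08 (SE 0.40), and the controls, at 10.8 and 10.04 CPM, lay with the LPS libraries. Lyz2, the lysozyme of macrophages and neutrophils, was at 15660.0 and 10730.0 CPM against 29240.0 and 23700.0 CPM (log2 fold change 0.99, SE 0.29). Lyz2 was thus about 2.01-fold higher by group means, with both SLC libraries above both LPS libraries, and alveolar macrophages held 51.6% of its UMIs. H1f2 was at 183 and 194 CPM against 596.5 and 297 CPM, with controls at 188 and 204 CPM. SLC_LPS_1 lay far above the other 3 treated libraries. Klhl6, a ubiquitin ligase adaptor known from B cell receptor signalling, was at 65.6 and 43.3 CPM against 101 and 113 CPM. Rab44 was at 37.0 and 16.8 CPM against 79.5 and 61.7 CPM, and neutrophils held 76.3% of its UMIs. The other genes of this group, H2bc4, Prnp, AI839979, Pid1, Washc5, Mpp7 and Incenp, had fitted log2 fold changes between 0.53 and 0.95.

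On the low side, H2-T23, which encodes the peptide-presenting molecule Qa-1 seen by inhibitory receptors of NK and T cells, was at 84.4 and 190 CPM after LPS and at 28.2 and 18.1 CPM after SLC activation plus LPS (log2 fold change -2.57, SE 0.46). The SLC libraries also lay under the controls, which were at 50.1 and 29.0 CPM. Nos2, which makes nitric oxide in activated macrophages, was at 170 and 158 CPM against 38.1 and 80.3 CPM (-1.44, SE 0.46), and was at 0.980 and 0.427 CPM in controls. The 2 LPS libraries were close to each other here, and both SLC libraries stayed well above the controls. Il6, the inflammatory cytokine, was at 141 and 319 CPM against 89.2 and 55.0 CPM (-1.68, SE 0.42). Cd274, the checkpoint ligand PD-L1, was at 688 and 745 CPM against 331 and 448 CPM (-0.87, SE 0.28). Tnfsf9, the ligand 4-1BBL, was at 111 and 119 CPM against 32.8 and 58.9 CPM, which put the SLC libraries below controls at 113 and 94.97 CPM. Ly86, whose product MD-1 pairs with the receptor RP105, was at 128 and 110.5 CPM against 61.3 and 57.8 CPM. For these last 3 genes the gap between the groups was wider than the spread within either. Retnla, a secreted resistin-like protein, was at 129 and 197 CPM against 76.8 and 32.9 CPM, with 81.6% of its UMIs in club cells. The libraries held only 35 and 54 club cells against 37 and 20. With a stricter cell filter Retnla was at 54.2 and 36.5 CPM against 24.6 and 23.1 CPM, so LPS_2 no longer lay above LPS_1. Ngp was at 225 and 360 CPM against 50.9 and 65.4 CPM, while its controls spread from 34.1 to 213 CPM. Cd300a, an inhibitory receptor of myeloid cells, was at 92.5 and 182 CPM against 60.5 and 42.4 CPM. All 24 kept their side with TMM-scaled CPM, with a stricter cell filter and with class levels weighted to a common cell makeup. With neutrophils left out, Prnp and Ngp overlapped and the other 22 kept their side.

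**Figure D2:**
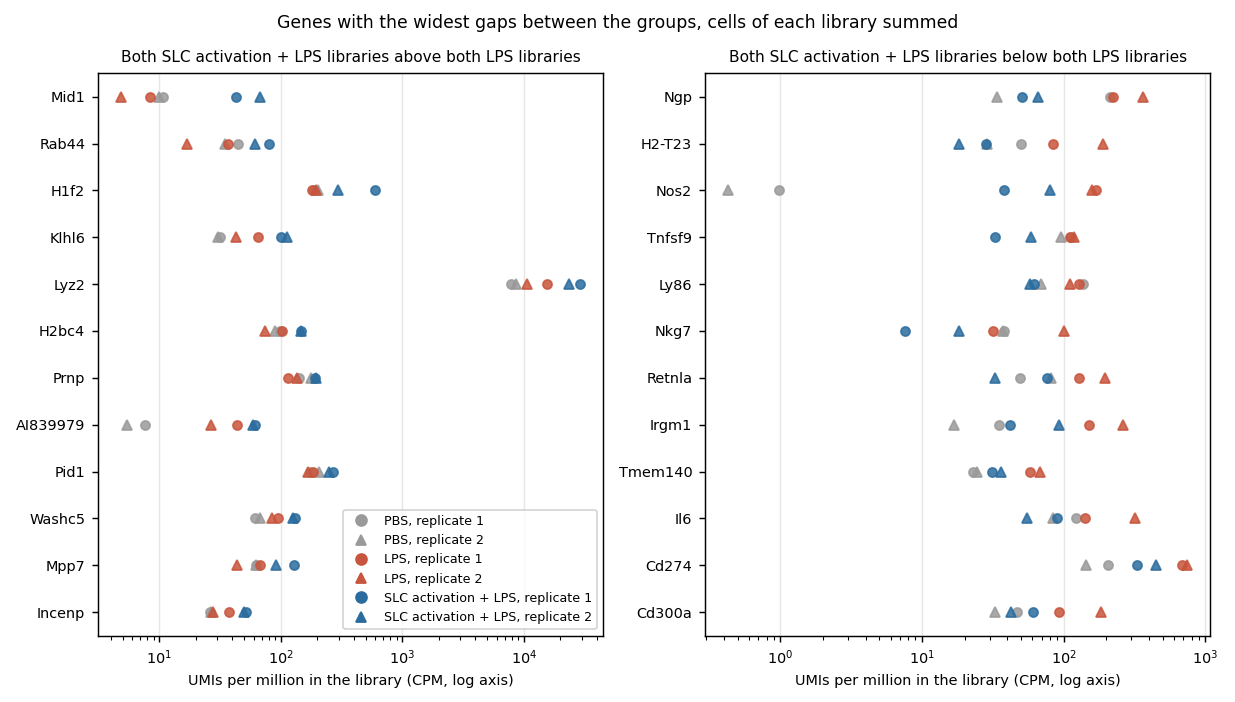
Level of 24 genes with a wide gap between the groups (x axis, CPM, log axis), all with a symbol and a mean of 50 CPM or more in one group, predicted genes left out, with 1 point per library, colour by group and shape by replicate. Points of the 2 SLC plus LPS libraries lie beyond both LPS points for each gene by the rule that chose them, as for Mid1 (43.1 and 67.9 against 8.35 and 4.85 CPM).

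A separate gene, Slc15a2, was chosen after its values were seen because it was near absence in the LPS libraries. It encodes a proton-coupled peptide transporter that also carries bacterial peptides. Over whole libraries it was at 0.984 and 2.73 CPM after LPS and at 21.2 and 14.2 CPM after SLC activation plus LPS, with controls at 27.0 and 28.7 CPM. The unnamed transcript ENSMUSG00000120777 had the same order, at 2.85 and 6.56 CPM against 21.7 and 25.8 CPM, with controls at 39.0 and 26.3 CPM. For both, the LPS libraries lay far below the controls and the SLC libraries closer to them. By class, Slc15a2 was at 0.343 and 0 CPM against 21.0 and 15.2 CPM in recruited monocytes and at 0.229 and 2.13 CPM against 8.29 and 8.09 CPM in alveolar macrophages. In T cells it was at 1.46 and 0.621 CPM against 64.8 and 26.8 CPM (adjusted p = 0.0632 in edgeR). NK cells had 0 UMIs in both LPS libraries and 10 and 3 UMIs (53.3 and 9.24 CPM) in the SLC libraries. This was at least 17.2-fold higher against a floor of 3 UMIs over the group, which SLC_LPS_2 by itself only reached. CPM of Slc15a2 was thus higher in 6 of the 7 classes and overlapped in endothelial cells. Free RNA, the RNA in barcodes with too few UMIs to be cells, held Slc15a2 at 2.55 and 3.64 CPM against 45.0 and 25.4 CPM. The share of the level expected from it was 65.6% in alveolar macrophages, 32.5% in recruited monocytes, 27.4% in NK cells, 12.0% in T cells and 10.2% in B cells, and its part in the differences was not tested. DESeq2 called both, with Mid1, Sec22c and Tmsb15b1, as higher. Its 12 lower calls were H2-T23, Mdm1, Igha, Il5, Csf2, Siglech, Hba-a1, Mmrn1, Nlrp9b, Gm47015, Vmn2r96 and ENSMUSG00000121393, which edgeR did not call.

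Some interferon-induced genes were lower in both SLC libraries. Of 44 tested members of a list of antiviral interferon-stimulated genes, 15 were lower (34.1%) and 0 higher after SLC activation plus LPS, against 11% and 13.3% of all genes tested. All 44 had a fitted log2 fold change under 0, with a list median of -0.784 where the median over all genes was 0.00117. Of 19 guanylate-binding and immunity-related GTPases, 5 were lower and 0 higher (median -0.731), and of 20 genes of MHC class I and its peptide loading, 7 were lower and 0 higher (median -0.387). No member of the 3 lists passed edgeR. The median of the antiviral list was -1.0 without LPS_1, -0.538 without LPS_2 and -0.75 without neutrophils. That of the GTPases was -0.9, -0.49 and -0.828 under the same 3 settings, and that of the MHC class I list was -0.18, -0.592 and -0.325. The size of the antiviral and GTPase medians therefore differed with the LPS library used, while their sign did not.

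The promoters of 4 of these genes are shown because each was lower and holds the letters of the interferon-stimulated response element. The sequences come from RefSeq on build GRCm38.p6, 250 bases before to 50 after the start, written 5' to 3' on the gene's strand. Capitals mark matches to its core, which was searched as GAAA, any 2 bases and GAAA again, or on the other strand TTTC, any 2 bases and TTTC.
H2-T23 promoter, chr17:36032652-36032951, minus strand: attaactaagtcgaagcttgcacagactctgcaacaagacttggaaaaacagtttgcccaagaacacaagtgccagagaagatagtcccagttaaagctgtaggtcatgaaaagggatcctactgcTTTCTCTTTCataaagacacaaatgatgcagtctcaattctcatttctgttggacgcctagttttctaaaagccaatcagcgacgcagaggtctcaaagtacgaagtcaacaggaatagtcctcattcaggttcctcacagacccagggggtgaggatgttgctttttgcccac
Irgm1 promoter, chr11:48871371-48871670, minus strand: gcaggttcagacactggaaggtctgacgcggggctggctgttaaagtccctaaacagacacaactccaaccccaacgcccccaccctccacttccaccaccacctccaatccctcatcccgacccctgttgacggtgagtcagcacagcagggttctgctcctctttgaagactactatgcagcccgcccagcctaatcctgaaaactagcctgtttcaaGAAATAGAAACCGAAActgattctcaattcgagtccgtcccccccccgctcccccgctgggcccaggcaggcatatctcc
Ifit1bl1 promoter, chr19:34599378-34599677, minus strand: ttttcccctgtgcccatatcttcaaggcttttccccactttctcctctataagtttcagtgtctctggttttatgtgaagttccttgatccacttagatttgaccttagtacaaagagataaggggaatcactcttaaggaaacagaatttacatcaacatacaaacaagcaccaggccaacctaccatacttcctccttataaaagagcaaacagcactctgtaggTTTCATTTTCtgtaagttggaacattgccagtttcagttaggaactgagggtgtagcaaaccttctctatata
Trim30a promoter, chr7:104446076-104446375, minus strand: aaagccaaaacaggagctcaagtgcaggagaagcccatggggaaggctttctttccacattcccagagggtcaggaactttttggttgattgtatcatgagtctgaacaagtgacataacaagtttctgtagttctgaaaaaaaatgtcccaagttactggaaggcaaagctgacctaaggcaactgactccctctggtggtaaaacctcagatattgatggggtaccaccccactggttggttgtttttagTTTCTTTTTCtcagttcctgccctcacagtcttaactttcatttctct

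The first match begins at base -124 from the start in H2-T23, at -30 in Irgm1, at -23 in Ifit1bl1 and at 3 in Trim30a, and Irgm1 holds 2 overlapping matches. Of the 27 members of the 3 lists that were lower, 22 had a window in the table, and 15 of these held the core (68.2%). The core was in 34 of the 61 tested members with a window (55.7%), lower or not, and in 3.97% of all 12904 tested genes with a window. The core was thus frequent over the whole lists. A match is a run of letters and not a measured binding site. The interferon gamma activated site TTCNNNGAA, which reads the same on both strands, was in 3 of the 22 (13.6%), in 14 of the 61 tested members, lower or not (22.95%), and in 8.53% of all tested genes.

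Single interferon-induced genes showed how the libraries lay. Irgm1, a regulator of the immunity-related GTPases, was at 150 and 264 CPM after LPS and at 41.6 and 93.2 CPM after SLC activation plus LPS, with controls at 35.2 and 16.8 CPM (log2 fold change -1.59, SE 0.54). SLC_LPS_1 was close to the controls, and SLC_LPS_2 between. Trim30a, a feedback inhibitor of Toll-like receptor signalling, was at 327 and 451 CPM against 129 and 237 CPM, with controls at 100.5 and 90.7 CPM. Herc6, the ligase that attaches Isg15 in mice, was at 39.8 and 65.9 CPM against 11.9 and 26.1 CPM. Ddx58, the viral RNA sensor RIG-I, was at 94.5 and 128 CPM against 55.6 and 73.3 CPM. In these 4 genes SLC_LPS_1 was the lowest of the treated libraries and LPS_2 the highest. Ifit1bl1 was at 7.00 and 37.3 CPM against 3.09 and 4.61 CPM, and LPS_2 stood far above the other 3.

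Among the GTPases that attack pathogen vacuoles, Gbp3 was at 114 and 165 CPM against 31.5 and 83.6 CPM, Irgm2 at 82.0 and 160 CPM against 37.7 and 75.3 CPM and Iigp1 at 102 and 339 CPM against 38.5 and 101 CPM. The gap between the nearest libraries was small for Irgm2 and Iigp1. Psmb9, a subunit of the immunoproteasome that cuts peptides for MHC class I, was at 26.6 and 32.8 CPM against 9.67 and 13.6 CPM, with controls at 6.16 and 5.95 CPM (log2 fold change -1.34, unadjusted p = 0.00302). Psmb9 kept a narrow spread within each group, narrower than the step between them. H2-T22 was at 90.8 and 159 CPM against 29.5 and 68.4 CPM. Genes of these families have near-identical copies (H2-T22 and H2-T23, Trim30a and Trim30c, the Gbp cluster), and no source used here says how shared reads were split, so the share of each copy is uncertain.

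By cell class, the antiviral list had lower members in each of 7 classes, which are given beside the share of all genes lower in that class. In neutrophils 20 of 44 were lower (median log2 fold change -1.19), where 4.8% of all genes were. In recruited monocytes 20 of 44 were lower (-1.73) beside 12.3%, and in alveolar macrophages 15 of 42 (-0.517) beside 9.37%. In T cells 15 of 36 were lower (-0.332) beside 13.3%, in B cells 10 of 27 (-0.401) beside 16.5% and in endothelial cells 11 of 34 (-1.33) beside 11.7%. None was higher in these 6 classes. NK cells had 4 lower and 4 higher of 27 (median -0.00943), near their background of 13.9% lower and 16.1% higher, the higher ones being Slfn4, Rsad2, Ifit3 and Oasl2. The GTPase list had 3 of 16 lower in neutrophils, 2 of 19 in recruited monocytes and 1 of 16 in alveolar macrophages. In recruited monocytes and alveolar macrophages that was under the share of all genes. It had 4 of 16 lower in T cells, 4 of 13 in B cells and 4 of 17 in endothelial cells, with 0 higher in these 6 classes. NK cells had 5 lower and 2 higher of 14. Its member Irgm1 was lower in neutrophils, at 284 and 400 CPM against 62.8 and 163 CPM, and in recruited monocytes, at 71.8 and 356 CPM against 21.6 and 53.2 CPM. It overlapped in NK cells, at 18.4 and 55.1 CPM against 37.3 and 21.6 CPM. MHC class I members were lower for 11 of 20 in recruited monocytes, 9 of 20 in B cells, 8 of 20 in endothelial cells, 6 of 20 in neutrophils, 5 of 20 in T cells and 3 of 20 in alveolar macrophages, with 0 higher in each, beside the same shares of all genes. NK cells had 4 lower and 2 higher of 19. In endothelial cells H2-T23 was at 188 and 693.5 CPM against 58.6 and 78.6 CPM, and in alveolar macrophages it was at 91.0 and 95.5 CPM against 19.97 and 16.5 CPM.

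**Figure D3:**
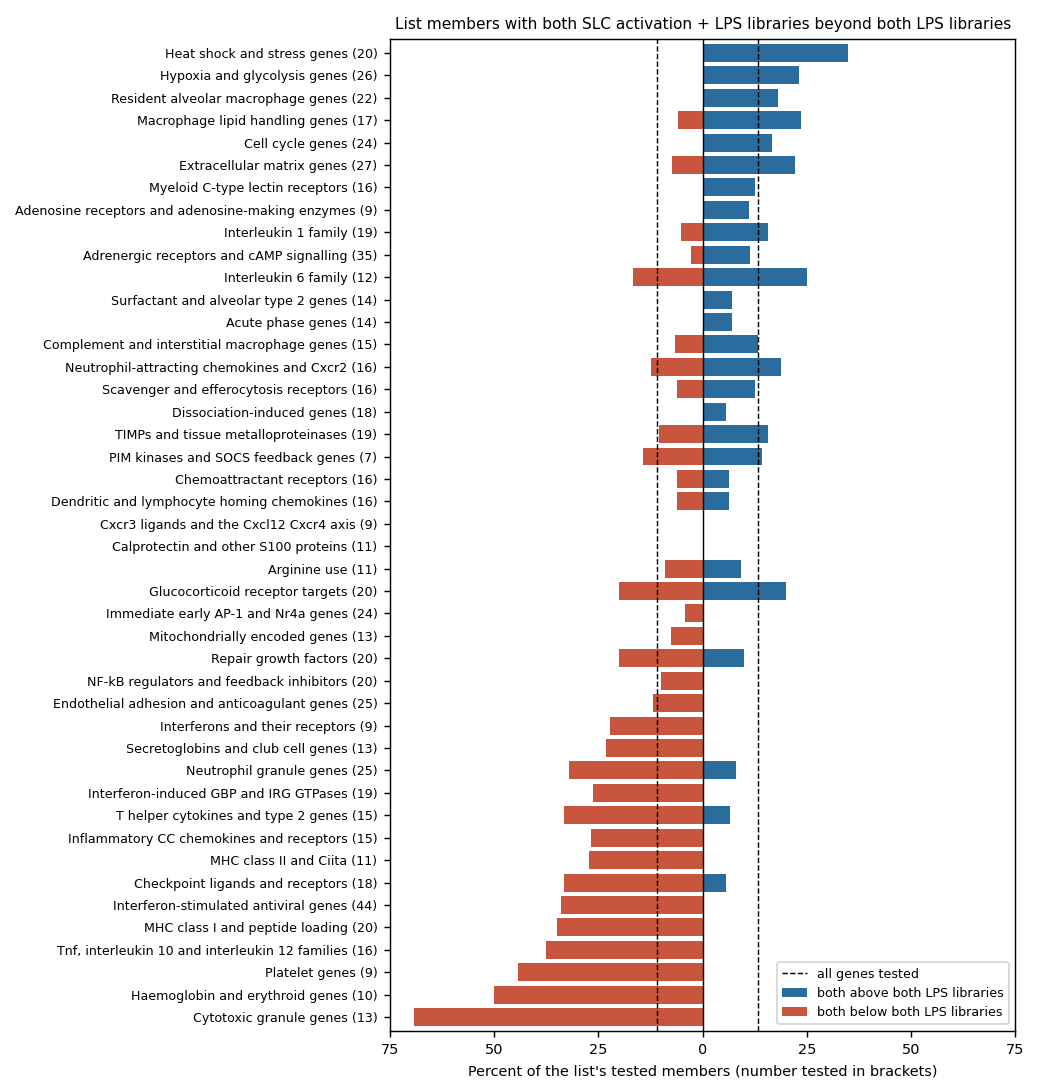
Percent of each list's tested members with both SLC activation plus LPS libraries above (bars to the right) or below (bars to the left) both LPS libraries, in whole libraries. Dashed lines give the shares over all genes tested, 13.3% and 11%. Many bars pass the dashed line on the low side, among them those of the cytotoxic (69.2%), erythroid (50%) and platelet (44.4%) lists. The Tnf, interleukin 10 and interleukin 12 (37.5%), MHC class I (35%) and antiviral (34.1%) lists pass it as well.

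Over the 44 lists, with 789 members, no member passed edgeR in whole libraries. Counts of list members are read beside 13.3% higher and 11% lower over all genes tested. Cytotoxic granule genes had the highest share of lower members, 9 of 13 (69.2%; median -1.49, and -1.81, -0.786 and -1.36 without LPS_1, without LPS_2 and without neutrophils). Gzma, a granzyme that NK and T cells release into their targets, was at 126 and 691 CPM against 36.3 and 108 CPM. Nkg7, a granule protein of the same cells, was at 31.7 and 101 CPM against 7.58 and 18.3 CPM. Both moved with the NK cell share, which was 1.64% and 4.98% of cells after LPS and 0.886% and 1.51% after SLC activation plus LPS. The part of that share in the result was not tested. Within NK cells Gzma was at 6421 and 13300.0 CPM against 6105 and 6151 CPM, so LPS_1 lay near the SLC libraries there.

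Neutrophil granule genes split. Of 25, 8 were lower (32%) and 2 higher (8%), beside 11% and 13.3% of all genes tested. Their median was -0.469, and -0.184 without LPS_1 and -0.213 without LPS_2. Retnlg, a resistin-like protein of blood neutrophils, was at 1910.0 and 4072 CPM against 729 and 1367 CPM, and the gelatinase Mmp9 at 112 and 302 CPM against 86.3 and 71.5 CPM. Ltf, Camp, Padi4, Cd177 and Anxa1 were the other lower members after Ngp, and Lyz2 and the oxidase subunit Cybb the higher ones. The neutrophil share went the other way, at 62.8% and 35.8% of cells after LPS and 69.3% and 65.0% after SLC activation plus LPS. Within neutrophils 8 of 21 granule genes were lower and 2 higher (median -1.3), beside 4.8% and 26.3% of all genes, Ngp at 427 and 1312 CPM against 48.1 and 139 CPM and Retnlg at 5171 and 15550.0 CPM against 1921 and 3528 CPM. Ngp, Retnlg and Mmp9 are among the leading genes of cluster 10, which held 67.5% of LPS_2 neutrophils. Within cluster 2 Retnlg overlapped, at 328 and 260.0 CPM against 151 and 301 CPM, and within cluster 0 it was lower, at 482.5 and 557 CPM against 361 and 439 CPM. Calprotectin and the other S100 genes gave 0 higher and 0 lower of 11.

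Cytokine and chemokine lists differed from one another, and are given beside 13.3% higher and 11% lower over all genes tested. The Tnf, interleukin 10 and interleukin 12 list had 6 of 16 lower (37.5%) and 0 higher (median -0.507). The CC chemokine list had 4 of 15 lower (26.7%) and 0 higher (-0.418, and -0.583 without LPS_1 and -0.254 without LPS_2). The interleukin 1 family had 3 higher (15.8%) and 1 lower (5.26%) of 19, and the interleukin 6 family 3 higher (25%) and 2 lower (16.7%) of 12. The neutrophil-attracting chemokines had 3 higher (18.8%) and 2 lower (12.5%) of 16 (median 0.151). The interleukin 1 and neutrophil-attracting lists lay near the shares over all genes. Ligands of Cxcr3 and the Cxcl12 axis had 0 of 9 in either direction, and homing chemokines 1 higher and 1 lower of 16 (6.25% each). No direction was thus common to these lists. Ccl2, which draws monocytes, was at 236 and 248 CPM against 133 and 169 CPM, and its receptor Ccr2 at 140 and 111 CPM against 46.3 and 95.5 CPM. The neutrophil attractant Cxcl1, a lower member of a list with more higher ones, was at 2543 and 3290 CPM against 1151 and 1864 CPM. Ccl2 and Cxcl1 were thus low in both SLC libraries with a step wider than the LPS spread for Ccl2. Csf3, the growth factor of neutrophils, went the other way, at 23.2 and 7.65 CPM against 38.3 and 27.2 CPM. Il5, the eosinophil growth factor made by innate lymphoid cells, was at 0.904 and 17.4 CPM against 0.296 and 0.297 CPM, so LPS_2 alone stood high. Checkpoint genes had 6 of 18 lower (33.3%), Cd274, Tnfsf9, Cd40, Tnfrsf9, Ido1 and Cd200, and Cd80 higher (median -0.35, and -0.62 without LPS_1 and -0.145 without LPS_2).

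Stress, metabolism and matrix lists had more higher than lower members, as did all genes tested (13.3% higher and 11% lower). Heat shock and stress genes had 7 of 20 higher (35%) and 0 lower (median 0.25). Hypoxia and glycolysis genes had 6 of 26 higher (23.1%) and 0 lower (0.211). Hmox1, the haem-degrading enzyme, was at 1011 and 1206 CPM against 2514 and 1219 CPM, so SLC_LPS_2 barely passed LPS_2. Pgk1, a glycolytic kinase, was at 444 and 366 CPM against 565 and 544 CPM, and Egln3, the oxygen-sensing hydroxylase, at 19.7 and 9.94 CPM against 35.7 and 22.9 CPM. Without LPS_2 these 2 medians were 0.0673 and 0.0287, against 0.474 and 0.506 without LPS_1. Extracellular matrix genes had 6 of 27 higher (22.2%) and 2 lower (7.41%), with a median of 0.227. Among them fibronectin Fn1 was at 614 and 384 CPM against 1217 and 635 CPM, mostly in recruited monocytes (55.8% of its UMIs). The arginase Arg1, which competes with Nos2 for arginine, overlapped at 96.5 and 43.6 CPM against 268 and 94.0 CPM.

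Of 35 tested genes of adrenergic receptors and cAMP signalling, 4 were higher (11.4%) and 1 lower (2.86%), near or under the background, with a median of -0.018. The alpha-1 receptor Adra1b was lower, at 0.931 and 0.531 CPM against 0.376 and 0.409 CPM. Arrb1, Adcy3, Adcy7 and Slc6a2 were higher. Adcy3, an adenylyl cyclase, was at 16.9 and 17.6 CPM against 26.6 and 20.7 CPM, with 68.8% of its UMIs in alveolar macrophages. Slc6a2, the noradrenaline transporter, which endothelium of the lung expresses, was at 1.44 and 1.20 CPM against 4.03 and 2.27 CPM, with controls at 29.5 and 16.3 CPM. In endothelial cells Slc6a2 was at 52.9 and 16.4 CPM against 136 and 219 CPM, with controls at 331 and 303 CPM (log2 fold change 2.51, SE 0.50, adjusted p = 0.536 in edgeR), and 1.02% of that level was expected from free RNA. Both SLC libraries lay between the LPS libraries and the controls.

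Glucocorticoids are stress hormones that damp inflammation through the receptor Nr3c1. Of 20 targets of this receptor, 4 were higher and 4 lower (20% each), beside 13.3% and 11% of all genes tested (median 0.149). The metallothioneins were higher, Mt1 at 102 and 53.2 CPM against 174 and 126 CPM and Mt2 at 163 and 103 CPM against 300.5 and 187 CPM, with Tsc22d3 and Cebpd. Lower were the receptor Nr3c1, at 79.6 and 240 CPM against 70.8 and 66.4 CPM, Errfi1, Sgk1 and Hsd11b1. The list thus had no common direction. Haemoglobin and erythroid genes, a sign of blood in the preparation, had 5 of 10 lower and 0 higher (median -3.73, and -0.613 without LPS_1). Hba-a1 was at 7.37 and 0.601 CPM against 0.215 and 0.112 CPM, with controls at 38.0 and 36.1 CPM, so LPS_1 was the highest of the treated libraries, as it was in the summed erythroid markers (39.5 CPM against 0.818 to 2.61 CPM in the other 3). The part of blood cells in other results was not tested.

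Neutrophils gave 1 gene that passed edgeR, of 13169 tested (0.00759%), with 454 at an unadjusted p under 0.05. That gene was Slc15a2, which rose from 0.160 and 0.374 CPM (2 and 4 UMIs) after LPS to 25.8 and 13.2 CPM (336 and 119 UMIs) after SLC activation plus LPS (log2 fold change 5.80, SE 0.61, adjusted p = 0.026). Controls were at 29.8 and 39.97 CPM, so the LPS libraries were the ones that stood apart. On average over the SLC libraries, 34.7% of the level was expected from free RNA, estimated from barcodes with at most 100 UMIs. The call was lost without PBS_1 (adjusted p = 0.0944), without PBS_2 (0.108) and without SLC_LPS_1 (0.146). Without LPS_1 the edgeR count was 819 (330 higher, 489 lower).

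In CPM, 3466 neutrophil genes were higher (26.3%) and 632 lower (4.8%), and with TMM scaling 2004 were higher and 1546 lower. Prok2, a chemokine-like peptide of granulocytes, was at 101 and 128 CPM against 8.54 and 40.2 CPM. Klhl6 was at 67.0 and 30.6 CPM against 139 and 143 CPM and Rab44 at 83.9 and 38.1 CPM against 179 and 151 CPM. The libraries fill different neutrophil clusters, as given above, so cluster 0 and cluster 2 were also taken alone. In cluster 2 Irgm1 (305 and 419 against 93.0 and 149 CPM), Nos2 (129 and 72.6 against 60.9 and 59.4 CPM) and Cd274 (1694 and 1739 against 1201 and 983 CPM) were lower as in all neutrophils. In cluster 0 all 3 overlapped, with Irgm1 at 439 and 1014 CPM against 484 and 240.1 CPM. H2-T23 was lower in cluster 0 too, at 90.0 and 222 CPM against 84.7 and 18.8 CPM. Of these 4 genes, H2-T23 therefore kept its order in both clusters and the other 3 in cluster 2.

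Alveolar macrophages, the resident phagocytes of the air spaces, had 0 of 11668 genes past edgeR (0.0%; 275 at unadjusted p under 0.05, and 361 called without LPS_1). In them 1703 genes were higher (14.6%) and 1093 lower (9.37%). Areg, an epithelial growth factor, was at 134 and 129 CPM against 52.9 and 66.7 CPM, with controls at 291 and 302 CPM. The interferon-induced Epsti1 was at 54.6 and 60.0 CPM against 28.3 and 30.1 CPM. Ffar2, the receptor for short-chain fatty acids, was higher, at 46.9 and 44.2 CPM against 102 and 69.9 CPM. These 3 genes had close replicates in the LPS group.

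Recruited monocytes, which enter the lung after injury, had under 20 cells in each PBS library and were fitted on the 4 treated libraries. Of 11787 genes 0 passed edgeR (0.0%; 201 at unadjusted p under 0.05, and 0 without LPS_1), while 1774 were higher (15.1%) and 1455 lower (12.3%). Nos2 was at 309 and 742 CPM against 56.1 and 133 CPM (log2 fold change -2.53, SE 0.60). Ptgs2, the inducible cyclooxygenase, was at 2516 and 3173 CPM against 1266 and 1298 CPM, and Ly86 at 274 and 388 CPM against 132 and 124 CPM. Lower levels of these inflammatory genes stood beside higher Chil3, a chitinase-like protein of alternatively activated macrophages, at 669 and 571 CPM against 1130.0 and 1176 CPM, and higher Lyz2, at 16630.0 and 6866 CPM against 42350.0 and 26310.0 CPM. The step in Ptgs2 and Chil3 was wider than the spread within either group.

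T cells had 1 of 9523 genes past edgeR (0.0105%; 378 at unadjusted p under 0.05, and 543 called without LPS_1), with 1382 higher (14.5%) and 1266 lower (13.3%). Mid1 rose from 10.97 and 5.59 CPM to 156 and 125 CPM (log2 fold change 4.09, SE 0.37, adjusted p = 0.00857). Without SLC_LPS_1 its adjusted p in edgeR was 0.512 and without SLC_LPS_2 it was 0.155. Of the Mid1 level in T cells 48.4% was expected from free RNA, whose part in the rise was not tested. Gzma was at 177 and 376 CPM against 103 and 103 CPM, and Cd83, an activation marker, at 54.8 and 53.4 CPM against 17.4 and 28.7 CPM. Cish, a feedback inhibitor of cytokine receptors, was higher, at 47.5 and 37.2 CPM against 80.6 and 89.8 CPM.

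NK cells had 0 of 6851 genes past edgeR (0.0%; 329 at unadjusted p under 0.05, and 375 called without LPS_1), with 1104 higher (16.1%) and 952 lower (13.9%). Gtpbp2, a ribosome rescue factor, was at 118 and 118 CPM against 32.0 and 33.9 CPM, from 58 and 182 UMIs against 6 and 11 UMIs. Ifi209, an interferon-induced gene, was at 79.7 and 106 CPM against 37.3 and 37.0 CPM. Cmklr1, the chemerin receptor, was higher, at 22.5 and 24.6 CPM against 53.3 and 55.4 CPM. The SLC libraries rest on few NK cell UMIs for each of these genes, 3 to 25 per gene among those named by the gap.

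B cells had 1 of 8424 genes past edgeR (0.0119%; 422 at unadjusted p under 0.05, and 258 called without LPS_1), with 1060 higher (12.6%) and 1388 lower (16.5%). Mid1 rose from 10.7 and 5.46 CPM to 162 and 106 CPM (log2 fold change 4.11, SE 0.49, adjusted p = 0.0443), a call that the stricter cell filter (adjusted p = 0.877), the replicate block (0.175), leaving out likely doublets (0.0683) and leaving out SLC_LPS_1 (0.68) or SLC_LPS_2 (0.415) each ended in edgeR. Of the Mid1 level in B cells 60.2% was expected from free RNA, whose part in the rise was not tested. With genes over 50% expected from free RNA left out, 0 genes passed edgeR in B cells. Slc15a2 had 0 UMIs in both LPS libraries and 24 and 11 UMIs in the SLC libraries (150 and 29.9 CPM), at least 38.8-fold higher against a floor of 3 UMIs over the group. Il10, an anti-inflammatory cytokine that regulatory B cells make, was at 21.4 and 11.8 CPM against 49.98 and 54.4 CPM, from 14, 13, 8 and 20 UMIs. Mdm1 was at 41.3 and 77.3 CPM against 0 and 2.72 CPM (27 and 85 UMIs against 0 and 1), and Irgm1 at 71.9 and 174 CPM against 12.5 and 29.9 CPM. Il10 and Irgm1 therefore lay apart by group at low counts, with no call.

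Capillary and large-vessel endothelial cells had 0 of 8699 genes past edgeR (0.0%; 736 at unadjusted p under 0.05, and 894 called without LPS_1). In CPM 1840 genes were higher (21.2%) and 1020 lower (11.7%), and with TMM scaling 1393 were higher and 1459 lower. Cyp1a1, the enzyme induced through the aryl hydrocarbon receptor, was at 16.5 and 17.2 CPM against 347 and 89.9 CPM, with controls at 238 and 308 CPM. Like Slc6a2, it was low in both LPS libraries and closer to the controls in the SLC libraries. Eif2ak2, the antiviral kinase PKR, was at 76.03 and 105 CPM against 26.9 and 11.2 CPM, and Il6 at 59.5 and 92.5 CPM against 17.4 and 0 CPM, with 62.3% of the Il6 level expected from free RNA. Gzma and Adam8, also named by the gap, had 89.6% and 78.5% expected from free RNA, and the part of free RNA in their differences was not tested.

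Of 6200 genes tested in all 7 classes, 7 were higher in every class (0.113%) and 7 lower in every class (0.113%), and these 14 were named after their values were seen. The transcript ENSMUSG00000120777, which has no symbol, was at 8.04 and 18.6 CPM against 50.6 and 68.5 CPM in T cells and at 6.12 and 10.01 CPM against 74.97 and 43.5 CPM in B cells, gaps that would name it in both classes. Higher were Mid1, Lyz2, ENSMUSG00000120777, Pdcd4, Morf4l2, Atp5o and Cyb5b, and lower were H2-T23, Gm47015, Cyfip2, Kat2b, Msn, Tnfaip3 and Ugcg. Mid1 ranged from 2.06 to 13.2 CPM over the classes after LPS and from 20.8 to 162 CPM after SLC activation plus LPS. In the laboratory mouse the Mid1 gene crosses the edge of the region that the X and Y chromosomes share. It was at 2.08 and 2.06 CPM against 34.7 and 33.7 CPM in neutrophils (adjusted p = 0.0517 in edgeR) and at 10.2 and 2.59 CPM against 79.9 and 77.0 CPM in NK cells. In recruited monocytes it was at 13.2 and 8.17 CPM against 53.6 and 90.5 CPM. From 48.4% to 100% of its class levels were expected from free RNA, in which it was at 38.7 and 24.6 CPM after LPS and at 256 and 580.5 CPM after SLC activation plus LPS, and the part of free RNA in its difference was not tested. Free RNA had the same order for H2-T23, at 50.5 and 125.5 CPM against 21.9 and 7.25 CPM, and for ENSMUSG00000120777, at 2.08 and 4.47 CPM against 20.9 and 20.6 CPM. The labels give 1 strain and random assignment for all mice and nothing further on the origin of the animals of each group, so a difference between animals and one from the treatment cannot be told apart for genes that differ in every class. Lyz2 in T cells was at 2907 and 246 CPM against 3747 and 4354 CPM, with 52.3% expected from free RNA. For Lyz2 that share was 62.6% in B cells and 83.9% in endothelial cells. Tnfaip3, the NF-kB inhibitor A20, was lower in each class, in neutrophils at 3756 and 3524 CPM against 2625 and 3043 CPM. Free RNA was expected to give 71.1% of its level in endothelial cells and 56.8% in B cells. Tnfaip3 was also lower in free RNA, at 1541 and 1885 CPM against 1006 and 1221 CPM, whose part was not tested. H2-T23 ranged from 74.5 to 693.5 CPM after LPS and from 10.9 to 78.6 CPM after SLC activation plus LPS, with at most 9.07% expected from free RNA. Morf4l2, by CPM higher in all 7, had a fitted log2 fold change of -0.06 in endothelial cells, where TMM scaling turned its sign.

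**Figure D4:**
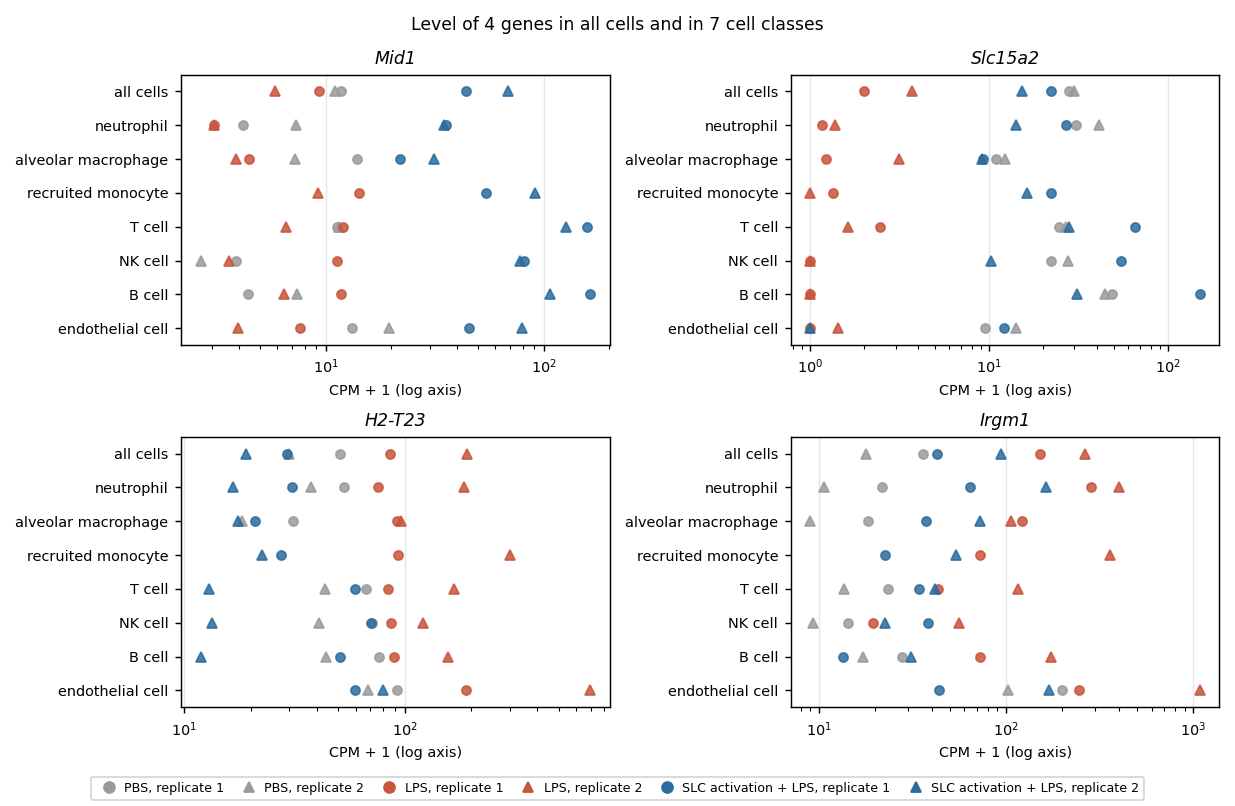
Levels (x axis, CPM + 1, log axis) of Mid1, Slc15a2, H2-T23 and Irgm1 in all cells and in 7 cell classes, with 1 point per library, colour by group and shape by replicate. H2-T23 points of the SLC plus LPS libraries lie under both LPS points in each class and Mid1 points above, while Irgm1 overlaps in NK cells (18.4 and 55.1 against 37.3 and 21.6 CPM).

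Neutrophils made up more, and B cells, NK cells and group 2 innate lymphoid cells less, of the cells in both SLC libraries than in both LPS libraries, with no share past the test. Of 21 classes and unnamed clusters, 0 passed edgeR in share (0.0%), 1 was higher (4.76%) and 3 were lower (14.3%). Neutrophils were higher, at 62.8% (95% interval 62.0% to 63.6%) and 35.8% after LPS against 69.3% and 65.0% (log2 fold change 0.45, SE 0.74), with an adjusted p of 0.859 in edgeR. B cells were lower, at 3.87% and 5.65% against 1.07% and 2.74%, and so were NK cells and group 2 innate lymphoid cells, the last at 0.190% and 0.250% against 0.112% and 0.162%. Recruited monocytes overlapped, at 13.6% and 3.95% against 9.26% and 13.4%. Patrolling monocytes, which crawl along vessel walls, were at 0.934% and 11.6% against 0.410% and 1.08%, an overlap in which LPS_2 stood far above the rest (adjusted p = 0.169). The unnamed cluster 21 held 0.0656% and 5.43% against 0.134% and 0.0155%. By marker score it lay closest to neutrophils (1.317, against -0.013 for the next class), with 12 neutrophil markers detected. The naming rule left it unnamed, so its cells are not in the neutrophil share. The exact intervals are binomial and cover the counting of cells, not the spread between mice, and the neutrophil share of LPS_2 lowers or raises every other share of that library with it. Without LPS_1, patrolling monocytes and cluster 21 passed in edgeR as lower (2 calls), and without PBS_1 or PBS_2 cluster 21 alone did.

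**Figure D5:**
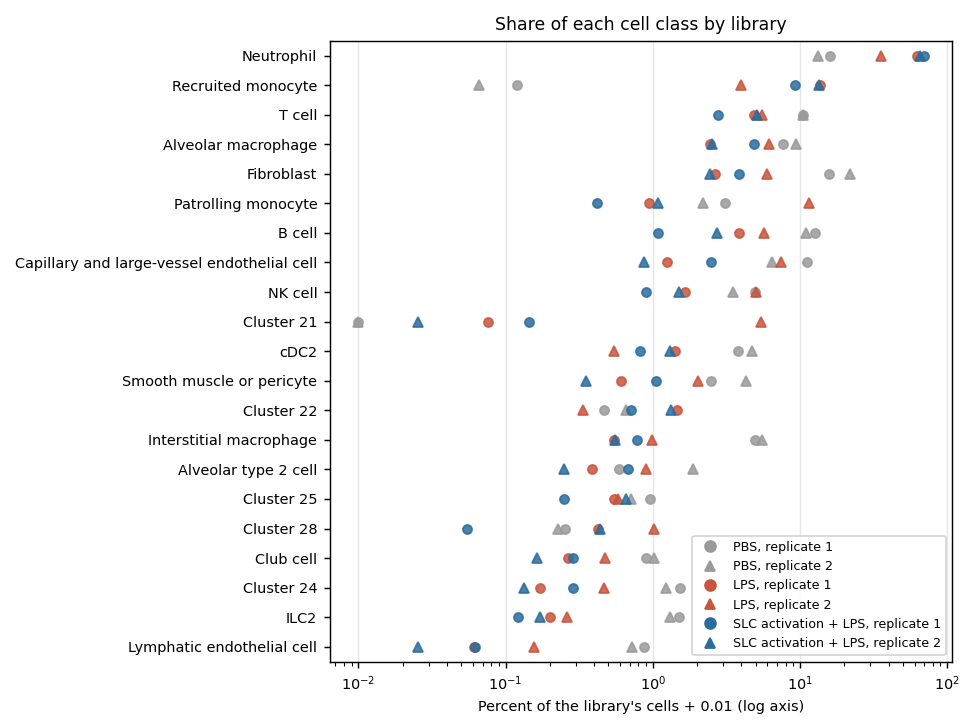
Share of kept cells in each class (x axis, percent + 0.01, log axis), with 1 point per library, colour by group and shape by replicate. Neutrophils make up 62.8% and 35.8% of cells in the LPS libraries and 69.3% and 65.0% in the SLC plus LPS libraries, and LPS_2 stands apart in patrolling monocytes at 11.6%.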

How the data were processed

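Single-cell RNA was captured from dissociated mouse lung with dead cells removed, per the labels' protocols, and the authors deposited raw UMI counts per gene and barcode for each library. Genome build GRCm39 (mm39) is named in the submitters' processing notes. The aligner and counter: not given in the sources used here. Promoter sequences came from RefSeq tables of build GRCm38.p6, matched by symbol, so coordinates of the 2 builds were not mixed.

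From these counts, a barcode was taken as a cell when it reached 500 UMIs and 300 genes and when mitochondrial genes held under 20% of its UMIs. The cells held 76.4% to 89.0% of all UMIs. Cells of all libraries were clustered with scanpy 1.11.5 and leidenalg 0.10.2 (3000 variable genes, 40 components, 20 neighbours, resolution 1). Clusters were named from fixed marker lists, with at least 3 markers detected. The thresholds of the naming rule were set after the cluster table had been seen, so names are rebuilt and not the authors'. Scrublet called 0.0% to 2.14% of cells and did not work in LPS_1, SLC_LPS_1 and SLC_LPS_2, so doublets were kept. The free RNA expected in a class was scaled from barcodes with at most 100 UMIs, by 50 marker genes of epithelial and mesenchymal cells. The 7 classes were assumed not to express these genes, which include Hp and Lyz1, and the assumption was not tested. Expression of such a gene within a class would make the percentages expected from free RNA too high there.

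UMIs were summed per library, and per library and class where each library of the fit held at least 20 cells. Sums were tested with edgeR 4.0.16 in R 4.3.3 (TMM, filterByExpr, robust quasi-likelihood, Benjamini-Hochberg, threshold 0.05) on all 6 libraries with group as the only term. The fit was also run on simulated counts with a fixed spread for all genes. That run does not show how the fit behaves at the spread between LPS_1 and LPS_2. With 2 libraries a group, an exact permutation test of a single value cannot go below p = 0.333. Named genes were the 12 higher and 12 lower (4 and 4 per class) with the largest gap between the groups' nearest libraries on log2(CPM + 1), at 50 CPM or more in the higher group, and up to 4 members of each list with the smallest p. Predicted (Gm), Rik and clone-named genes and mitochondrial, ribosomal, haemoglobin and antibody or T cell receptor segment genes were left out by that rule. Genes with no symbol were left out as well, which the rule as first written did not list. Other genes were named after their values were seen. The members and lists were chosen with earlier results of these data known. Alternatives were DESeq2 1.42.0, other filters and scalings, a replicate block and leaving out each library. Replicate numbers shared only a number: no label pairs the libraries. One item is not reported here.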

Additional observations from a re-analysis of the deposited data

How the results depend on the processing

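The edgeR counts of called genes, 0 over whole libraries and 0 or 1 per class, depended on the filter, the tool and single libraries. Without the low-count filter the counts were 325 (43 higher, 282 lower) over whole libraries, 92 in neutrophils, 32 in alveolar macrophages, 71 in recruited monocytes, 24 in T cells, 11 in NK cells, 13 in B cells and 105 in endothelial cells. DESeq2 gave 17, 9, 2, 10, 2, 1, 2 and 8 in the same order. Leaving out 1 library at a time gave 0 over whole libraries, 0 in recruited monocytes, and ranges of 0 to 819 in neutrophils, 0 to 361 in alveolar macrophages, 0 to 543 in T cells, 0 to 375 in NK cells, 0 to 258 in B cells, 0 to 894 in endothelial cells and 0 to 2 for shares of cells. The highest of these came without LPS_1 in each, when LPS_2 alone stands for its group and is assumed to vary like the other groups, and the cause was not tested.

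With the replicate number as a block the counts were 0 over whole libraries, 4 in neutrophils, 4 in recruited monocytes, 1 in NK cells and 0 in B cells, and the block gave Mid1 in neutrophils an adjusted p of 0.0149 in edgeR. The deviations of same-numbered LPS and SLC libraries had a correlation of -0.167 across genes, and the crossed pairing, chosen after seeing the data, gave 2 calls (1 higher, 1 lower). Leaving out likely doublets gave 2 in neutrophils and 0 in B cells, the stricter cell filter 0 in B cells, and leaving out genes with over 50% of the class level expected from free RNA 2 in T cells and 0 in B cells. Genes with both libraries beyond both numbered 4337, and 4420 with TMM scaling (3658 shared), 4701 with the stricter cells (3497), 4783 without neutrophils (3164) and 4630 at a common makeup (3098). The sign of a list's median depended on the LPS library left out in many lists, with the value without LPS_1 given first and without LPS_2 after it. These were MHC class II (1.17, -0.845), endothelial adhesion (-0.872, 0.327), acute phase (1.19, -0.188), complement (1.06, -0.193), dissociation-induced (0.527, -0.0585), mitochondrially encoded (0.4, -0.158), immediate early (0.254, -0.148), NF-kB (0.186, -0.098), homing chemokine (0.185, -0.279), interleukin 1 (0.172, -0.0335), macrophage lipid (0.141, -0.074), interferon and receptor (-0.17, 0.0085), adrenergic and cAMP (-0.11, 0.0411), metalloproteinase (-0.11, 0.096), chemoattractant receptor (-0.098, 0.00392) and resident macrophage genes (-0.0865, 0.384).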
